A study of Mus musculus with 6 samples.

Results

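Serpins are a superfamily of proteins that share 1 fold and are named by clade, A to I. The genes were chosen by symbol, as every row named SERPIN with a clade letter from A to I and a number, and by level, as at least 0.5 FPKM (a read density that corrects for transcript length and for how deeply a library was sequenced) in 1 library or more. Of 64 serpin rows among 24908 genes, 25 met this floor and 39 did not. The highest of the 39 were Serpind1 at 0.316 FPKM, Serpinb12 at 0.240 and Serpina11 at 0.229, and 17 of the 39 were listed at 0 in all 6 libraries. Just inside the floor, the highest FPKM was 0.638 for Serpini1, 0.939 for Serpina1b and 1.22 for Serpinb6c.

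The study profiled whole prostate lobes by bulk RNA-seq: the ventral (VP), dorsolateral (DLP) and anterior (AP) prostate of 1 MYC mouse and 1 wild-type (WT) littermate. Both were FVB males of 12 weeks on the same purified diet. The MYC mouse was heterozygous for the Hi-MYC transgene, human c-MYC under the ARR2Pb promoter, which is active in prostate epithelium, and the WT mouse carried no transgene. Lobes were dissociated with enzymes into cell suspensions, and their poly(A) RNA was read from 1 end in 75 bases. There was 1 library per genotype and lobe, so no p-value is given, the differences have no replicate check, and the genotype cannot be told apart from any other difference between the 2 mice.

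Most serpins trap a serine protease by offering it a loop that, once cut, drags the protease into an inactive complex. Secreted serpins hold complement, clotting and plasminogen activation in check, while clade B serpins stay inside cells and meet granule proteases and cathepsins. A few, such as the collagen chaperone Hsp47 and maspin, do not act as protease inhibitors. In a gland such as the prostate, which secretes serine proteases and sits in smooth muscle and fibroblasts, epithelium, stroma and leukocytes each make their own serpins.

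Depth, recovered from the steps between low FPKM values, was about 25.5 M mapped reads in WT AP and 34.8 to 50.2 M in the other 5 libraries, from 147 to 191 values a library, of which 34.4% to 48.3% lay within 0.03 reads of a whole number. It is therefore an approximate depth. The Myc gene, a check of the labels, stood at 226 FPKM in WT VP against 1696 in MYC VP, at 201 in WT DLP and 586 in MYC DLP, and at 230.0 in WT AP and 231 in MYC AP. It separated the genotypes in VP and DLP and gave no check in AP. The table has 1 Myc row and none for the human transgene, and whether reads of the transgene fall in that row was not tested. Krt8 and Krt18, the luminal keratins, reached at least 388 FPKM in every library, and Krt5 and Krt14, the basal keratins, at least 32.2.

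Summed over the 25 genes, the serpin level was 545 FPKM in WT VP, 924 in WT DLP and 986 in WT AP, against 304 in MYC VP, 762 in MYC DLP and 957 in the library labelled MYC AP. A few genes carried it. Serping1, the C1 inhibitor of the complement and contact systems, made up 41.6% to 46.2% of the sum in the 3 WT libraries and 43.2% in MYC AP. Its share was 25.8% in MYC VP, where Serpinb6a came first with 26.8%, and 22.7% in MYC DLP. Of the 25 genes, 17 reached 5 FPKM and 6 reached 50 FPKM in at least 1 library. The plot of levels orders them by group.

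**Figure D1:**
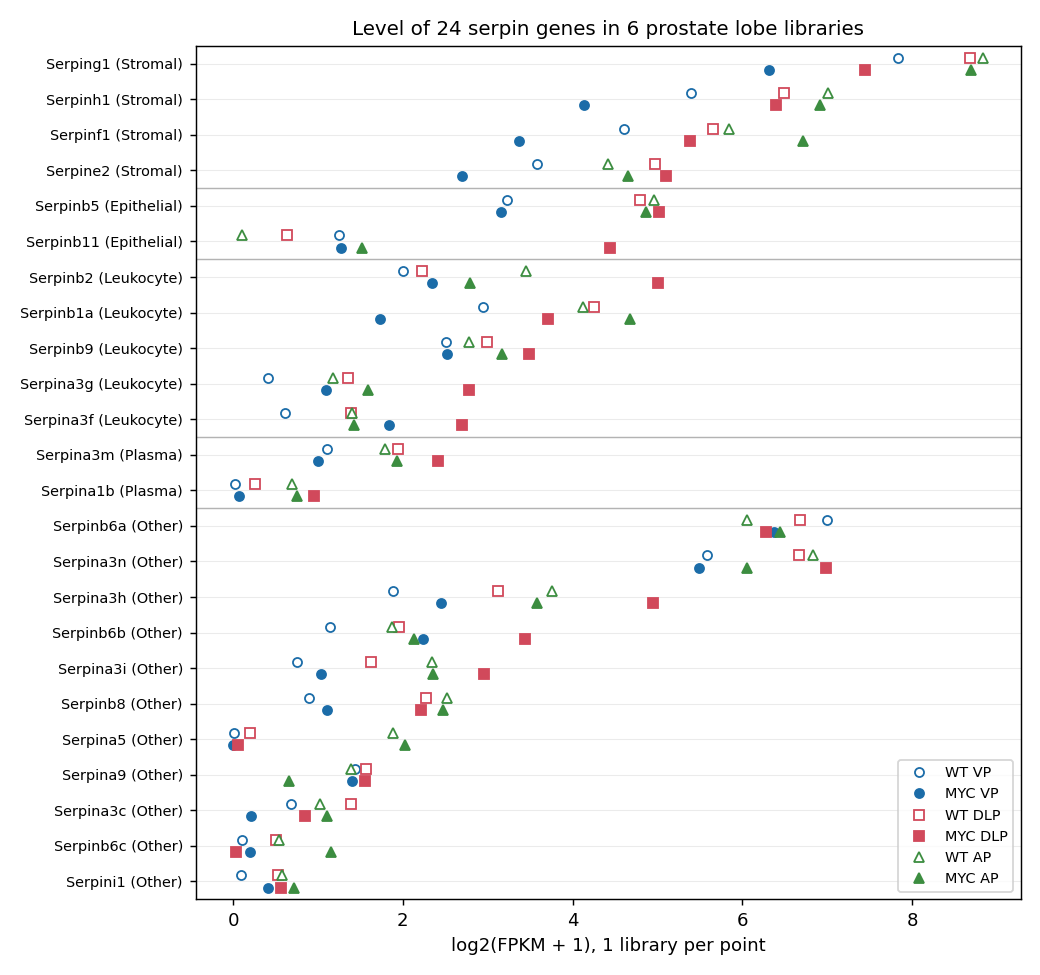
Level of 24 of the serpin genes as log2(FPKM + 1) on the horizontal axis, 1 point per library (open: WT, filled: MYC; circle: VP, square: DLP, triangle: AP), grouped by the list each gene belongs to. Serping1 is the highest serpin in WT AP at 456 FPKM, and the filled circles of Serping1, Serpinh1 and Serpinf1 (MYC VP) lie left of all their other points.

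The genes were sorted by where each is best known to be made. The stromal list held 5 genes, among them Serpine2, Serpinf1, Serping1 and Serpinh1, and all 5 met the floor. The epithelial list held 9 clade B genes, of which Serpinb5 and Serpinb11 met it. Of 6 leukocyte serpins 5 did, and of 14 plasma serpins of the liver only Serpina1b and Serpina3m. By position, 10 members lay on chromosome 12, all of clade A and 7 of them from the Serpina3 cluster. On chromosome 1 there were 5, of which 4 were clade B genes between Serpinb5 (chr1:106861175-106883348) and Serpinb8 (chr1:107589926-107608978), and a further 5 clade B genes lay on chromosome 13 (coordinates from RefSeq, GRCm38.p6).

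The first question was how the lobes of the WT mouse differ. In WT, serpin genes were lowest in VP: 22 of the 25 had their lowest FPKM there, a rank that 49.3% of all 14669 genes above the same floor held. The exceptions were Serpinb11, Serpinb6a and Serpina9. Highest in WT AP were 14 members, in WT DLP 9 and in WT VP 2, against 33.8%, 35.7% and 30.5% of all genes. Differences are log2 ratios of FPKM + 1 between 2 libraries, called when they reach 2-fold. In WT VP against WT DLP, 8 of 25 members (32.0%) were called lower, where 5.56% of all genes were, and 0 were called higher, where 2.35% were. The 8 became 5 when libraries were scaled by size factors, without Serpina3n, Serpinf1 and Serpinh1, where 3.86% of all genes were lower, and 18 with a pseudocount of 0.1, where 13.3% of all genes were lower. In WT VP against WT AP, 11 members (44.0%) were called lower, against 8.99% of all genes, and 1 higher, against 6.95%. The 11 became 18 with a pseudocount of 0.1, where 17.01% of all genes were lower. With size factors they became 10, without Serping1, and the 1 higher, Serpinb11, became 2 with Serpinb6a, where 8.34% of all genes were lower and 8.17% higher. In WT DLP against WT AP, 2 members (8.0%) were lower, against 1.23%, and 0 higher, against 3.53%. The median log2 ratio of the members was -0.81, -0.78 and -0.03 in these comparisons, and that of all genes -0.14, -0.04 and 0.08. The 3 comparisons share their libraries in pairs.

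**Figure D2:**
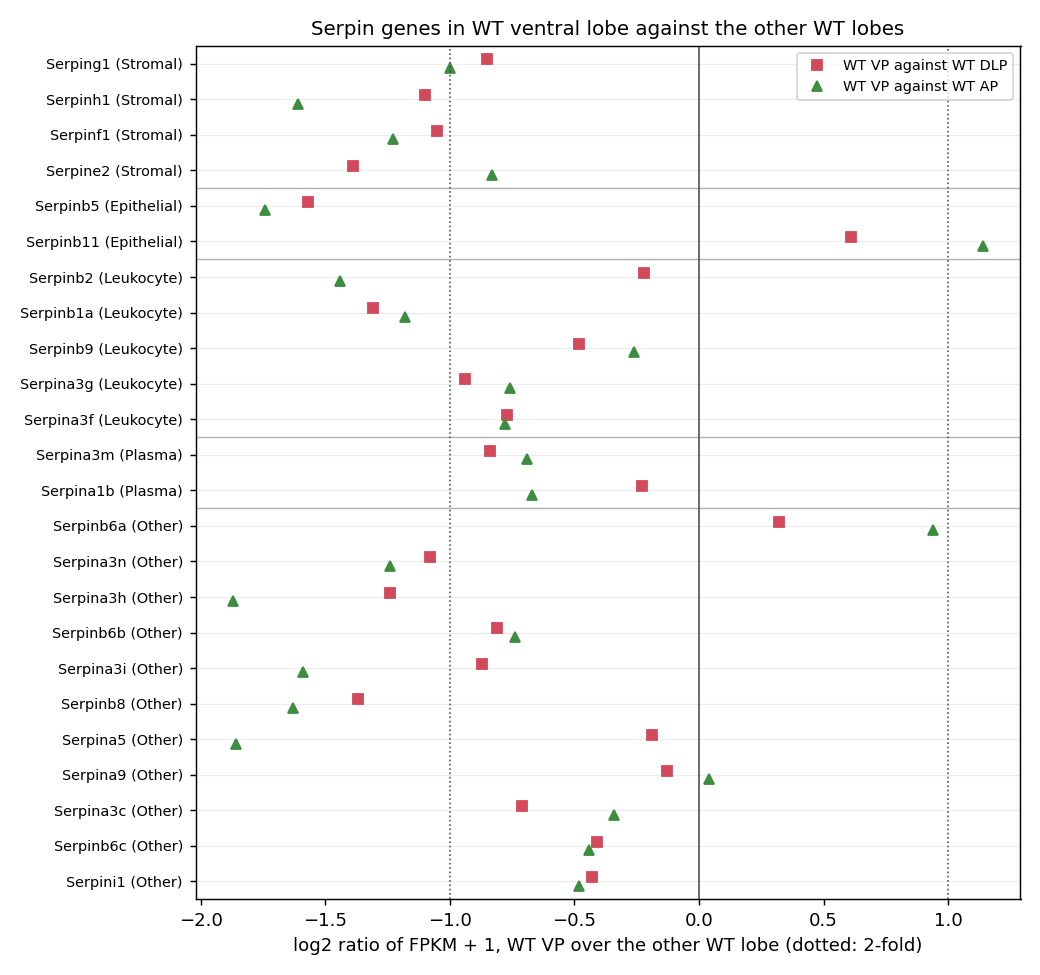
The log2 ratio of FPKM + 1 of WT VP over WT DLP (squares) and over WT AP (triangles) for 24 of the serpin genes, 1 library per lobe, with dotted lines at 2-fold. All but Serpinb11, Serpinb6a and Serpina9 lie left of 0 in both comparisons, down to -1.87 for Serpina3h against AP.

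Serpinb5 (maspin), the clade B serpin of basal and myoepithelial cells, showed the WT pattern most plainly among the epithelial genes. Its level was 8.33 FPKM in WT VP, 26.7 in WT DLP and 30.2 in WT AP, and 7.89, 31.5 and 28.1 in the same lobes of the MYC mouse. VP was thus the low lobe in both mice, with log2 ratios of -1.57 and -1.74 for WT VP against DLP and AP. Its ratio to Krt5 spanned only 0.233 to 0.277 over the WT lobes and was 0.245 in MYC VP and 0.257 in MYC AP, but 0.129 in MYC DLP, where Krt5 stood at 245 FPKM against 115 in WT DLP. Its ratio to Krt14, the other basal keratin, was less even, from 0.0397 in WT AP to 0.0705 in WT DLP, and was 0.0719 in MYC DLP and 0.0844 in MYC AP. The basal marker list moved with it: 3 of its 7 genes were at least 2-fold lower in WT VP than in WT DLP and 6 of 7 lower than in WT AP. Of all genes, 5.56% and 8.99% were.

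The stromal serpins also stood lowest in WT VP. Serpinh1 (Hsp47), which folds collagen in the endoplasmic reticulum, was at 41.2 FPKM in WT VP, 89.2 in WT DLP and 128 in WT AP. Serpinf1 (pigment epithelium-derived factor), a secreted serpin known to restrain vessel growth, was at 23.4, 49.4 and 56.4 FPKM, and Serping1 at 227, 411 and 456. Serpine2 (protease nexin 1), an inhibitor of thrombin and urokinase at the cell surface, peaked instead in WT DLP, with 10.98, 30.4 and 20.3 FPKM. The stromal median was -1.05 against DLP and -1.0 against AP, with 3 of 5 called lower in each, where 5.56% and 8.99% of all genes were. Scaled by size factors, Serpinf1 (-0.83) and Serpinh1 (-0.88) were no longer past 2-fold against DLP, which left Serpine2 alone, and Serping1 (-0.92) was not against AP. The shares of all genes called lower were then 3.86% and 8.34%. The fibroblast list had 3 and 5 of 8 markers called lower in the same comparisons, and all 8 endothelial markers were called lower in both, with Pecam1 at 6.25, 37.4 and 56.5 FPKM. Smooth muscle markers shared this only in part: 0 of 8 were called lower in either comparison, with medians of -0.35 against DLP and 0.58 against AP. All 8 lay below 0 against DLP, and 7 of 8 lay above 0 against AP. Krt8 was at 1292 FPKM in WT VP, 446 in WT DLP and 400 in WT AP, but of the 8 luminal markers 4 lay above 0 and 4 below in each comparison, with medians of 0.01 and 0.25. In bulk RNA, fewer cells of a type and less RNA per cell cannot be told apart, and the part of cell makeup in these ratios was not tested.

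Of the leukocyte list, Serpinb1a, an inhibitor of neutrophil elastase, stood at 6.69 FPKM in WT VP, 18.01 in WT DLP and 16.4 in WT AP. Serpinb2 (PAI-2), an inhibitor of urokinase in macrophages and keratinocytes, was at 3.02, 3.69 and 9.90 FPKM and so was high in AP alone. Serpinb9, which shields cells from granzyme B, passed 2-fold in none of the 6 comparisons, with 4.71, 6.96 and 5.86 FPKM in WT and 4.76, 10.2 and 7.98 in MYC. Serpinb8, known as an inhibitor of furin, followed Serpinb5, from the same cluster on chromosome 1, with 0.861, 3.82 and 4.76 FPKM in WT and 1.16, 3.66 and 4.56 in MYC.

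A pair of genes ran the other way. Serpinb6a, an intracellular inhibitor of cathepsin G, was at 127 FPKM in WT VP, 101 in WT DLP and 65.7 in WT AP, and its ratio of VP to AP, 0.94 on the log2 scale, stayed under 2-fold, but was 1.02 with size factors. In the MYC lobes it was 81.7, 76.5 and 85.8 FPKM, so that the order of the lobes seen in WT was not present there. Serpinb11, an epithelial clade B serpin of little known function, was at 1.37 FPKM in WT VP, 0.553 in WT DLP and 0.0786 in WT AP, the last about 4 reads. The ratio of WT VP to WT AP was 17.5 in FPKM, with a 95% interval of 6.31 to 61.6 from counting error alone.

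Serpina5 (protein C inhibitor), a secreted serpin of the male reproductive tract, was the most lobe-restricted member. It reached 2.68 FPKM in WT AP and 3.06 in MYC AP, but 0.0103 in WT VP, about 1 read, 0.152 in WT DLP and 0.0441 in MYC DLP, and was listed at 0 in MYC VP. WT AP exceeded WT DLP 17.7-fold (95% counting interval 10.2 to 33.3) and WT VP 261-fold (46.1 to 10390). Of 9 seminal vesicle secretion genes 7 met the floor, each through a MYC library alone, while Svs1 and Sva stayed under it in every library. The 7 summed to 0.0966 FPKM in WT AP and to 524 in MYC AP, most of it Svs4 and Svs5. Their sum was 0.186 FPKM in WT DLP and 11.3 in MYC DLP, and the part of such tissue in the MYC DLP ratios was not tested. Serpina5 in MYC AP differed from that in WT AP by 0.14 on the log2 scale, and the part of seminal vesicle tissue in either level was not tested. Both AP libraries stood above every VP and DLP library.

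The other question was what the MYC mouse shows in each lobe. In VP the change was mainly downward in stromal genes. MYC VP had 4 of 25 members (16.0%) called lower than WT VP, where 5.14% of all genes were, and 2 (8.0%) called higher, where 6.39% were. The 4 were Serping1, Serpinh1, Serpinf1 and Serpinb1a, and the 2 were Serpina3f and Serpinb6b. The 2 became 1, without Serpinb6b, when libraries were scaled to equal sums of FPKM, where 4.31% of all genes were higher, and 4 with a pseudocount of 0.1, where 11.9% were. The member median was -0.01, and that of all genes 0.03. In DLP the change was mainly upward: 7 members (28.0%) were called higher in MYC, against 6.54% of all genes, and 1 (4.0%), Serping1, was called lower, against 3.09%. The 7 became 1 with a mean of at least 10 FPKM, which leaves fewer genes, where 4.50% of all genes were higher. The 1 lower became 2 with a pseudocount of 0.1, where 6.10% were lower. In AP, 1 member (4.0%), Serpinb11, was called higher in MYC, against 1.90% of all genes, and 0 lower, against 0.545%. With a pseudocount of 0.1 these became 2 and 1, where the shares of all genes were 5.965% and 1.31%. With the pseudocount of 1, the member median in AP was 0.09 and the all-gene median 0.12, while in DLP they were 0.13 and 0.04.

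**Figure D3:**
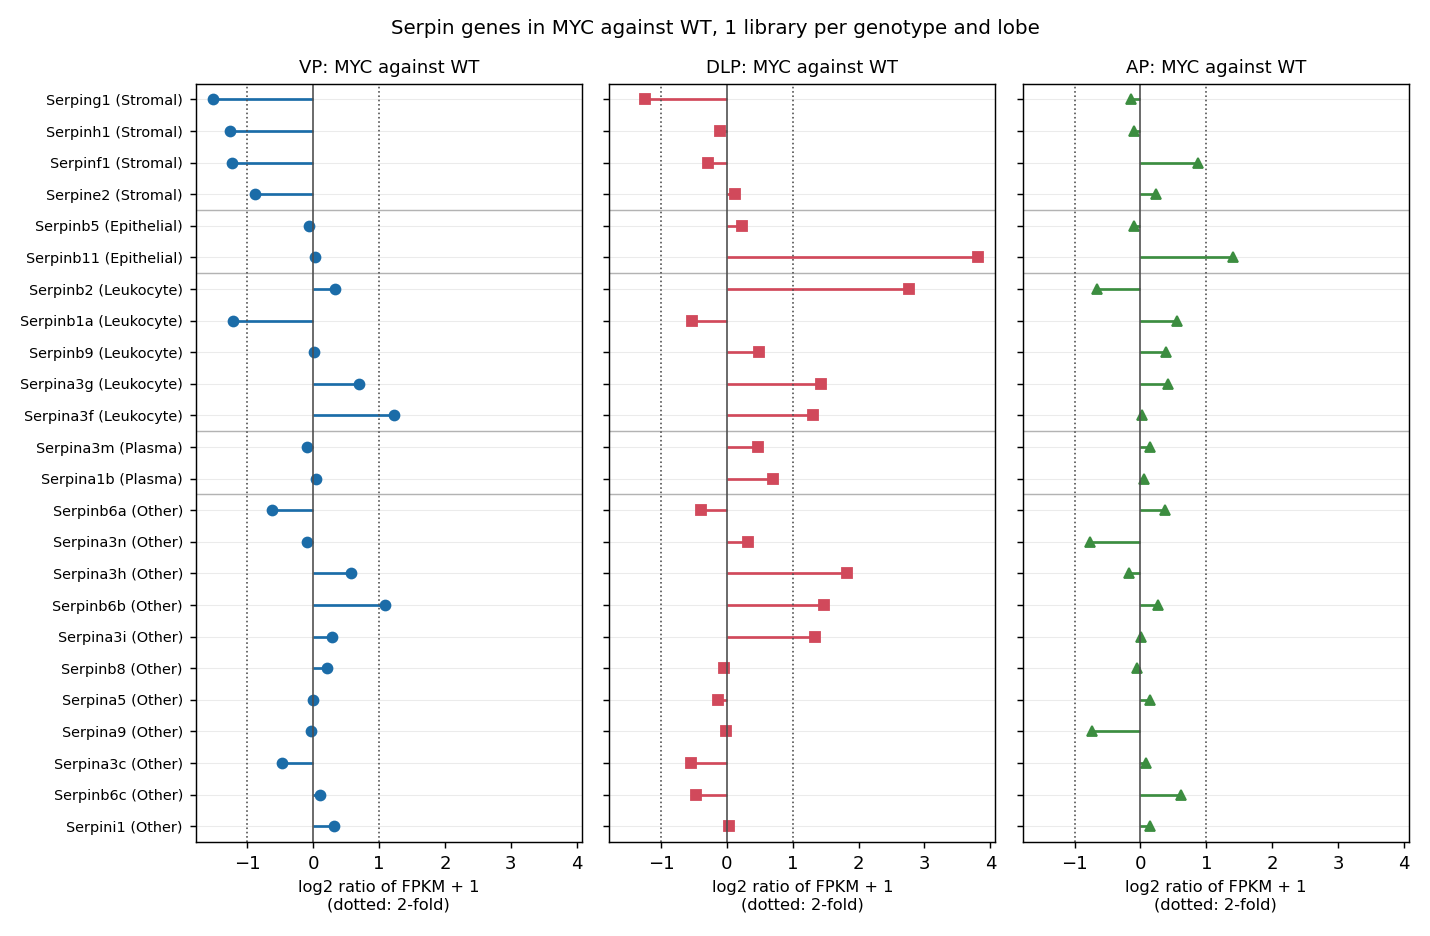
The log2 ratio of FPKM + 1 of MYC over WT for 24 of the serpin genes in VP, DLP and AP, 1 library per genotype and lobe, with dotted lines at 2-fold. Stromal serpins reach -1.52 (Serping1) in VP, 7 genes pass the right dotted line in DLP, up to 3.81 for Serpinb11, and in AP only Serpinb11 passes it, at 1.40.

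Serping1 was lower in MYC in both VP and DLP. It fell from 227 FPKM in WT VP to 78.6 in MYC VP, a ratio of 0.347 (95% counting interval 0.336 to 0.358), and from 411 in WT DLP to 173 in MYC DLP, a ratio of 0.421 (0.411 to 0.430), while AP held 456 and 414. C1ra and C1s1, mouse C1r and C1s proteases that the C1 inhibitor blocks, were lower in the same lobes. C1ra was 18.7 FPKM in WT VP against 8.04 in MYC VP, 52.7 and 23.4 in DLP, and 140 and 114 in AP. C1s1 was 23.2 and 6.92 in VP, 39.8 and 19.0 in DLP, and 67.3 and 70.3 in AP. Of the 11 coagulation and complement genes above the floor, 2 were called lower in VP and 3 in DLP, the third of them Thbd (thrombomodulin) at 54.6 FPKM in WT DLP and 19.2 in MYC DLP. In DLP 1 was called higher, and in AP 1 lower. Of all genes, 5.14% were lower in VP, 3.09% lower and 6.54% higher in DLP, and 0.545% lower in AP. Pdgfra, a fibroblast receptor, fell alongside, from 14.8 to 3.80 FPKM in VP and from 26.6 to 7.76 in DLP, and the ratio of Serping1 to Pdgfra was 15.4, 15.4 and 19.4 in WT VP, DLP and AP and 20.7, 22.2 and 14.7 in MYC. Of the 8 fibroblast markers, 3 were called lower in DLP and 2 higher, Col1a1 (1.98 on the log2 scale) and Col3a1 (2.03). The ratio to Pdgfra was less even for other stromal serpins. In WT DLP and MYC DLP it was 3.355 and 10.7 for Serpinh1 and 1.86 and 5.24 for Serpinf1.

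The other stromal serpins did not share this course. Serpinh1 fell from 41.2 to 16.6 FPKM in VP (-1.26 on the log2 scale), but was 89.2 and 83.4 in DLP and 128 and 120 in AP. Serpinf1 fell from 23.4 to 9.31 FPKM in VP (-1.24), was 49.4 and 40.7 in DLP, and was 56.4 in WT AP and 104 in the library labelled MYC AP (0.87). Serpine2 went from 10.98 to 5.505 FPKM in VP (-0.88, under 2-fold, but -1.08 with equal sums of FPKM), with 30.4 and 33.2 in DLP and 20.3 and 24.1 in AP. All 5 stromal serpins were thus below 0 in VP, with a median of -1.24, whereas the medians in DLP and AP were -0.15 and -0.10. In VP 5 of 8 fibroblast markers and 3 of 8 smooth muscle markers were called lower, where 5.14% of all genes were, with medians of -1.61 and -0.94. In DLP the counts were 3 and 3, with 2 fibroblast markers called higher, where 3.09% of all genes were lower and 6.54% higher. The endothelial list had medians of 0.05, 0.23 and 0.13 in the 3 lobes. The summed fibroblast list was 654 FPKM in WT VP against 184 in MYC VP, 1309 and 657 in DLP, and 1230 and 1338 in AP. The part of fewer stromal cells in the suspension was not tested.

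Serpinh1 and some of the collagens it folds moved apart. Col1a1 rose from 10.6 to 44.8 FPKM in DLP and from 13.8 to 60.1 in AP, and Col3a1 from 22.3 to 94.0 and from 29.0 to 113, while Serpinh1 differed by -0.10 in each lobe. These 2 chains had the largest ratios. Col6a1 and Col6a2 stayed closer to Serpinh1 in VP, at -1.54 and -1.58 against -1.26, and in DLP, at -0.26 and -0.07, but were at 1.0 and 0.92 in AP. The level of Serpinh1 was 8.39 times that of Col1a1 in WT DLP and 1.86 times in MYC DLP, 9.26 and 1.99 times in AP, and 6.67 and 2.30 times in VP. P4ha2, a subunit of the prolyl hydroxylase of collagen, was at 8.66 and 2.20 FPKM in VP, 17.6 and 9.31 in DLP and 11.4 and 9.88 in AP. Of the 19 collagen chains and folding partners above the floor, 4 were called lower in VP, 3 higher in DLP and 6 higher in AP. The shares of all genes were 5.14%, 6.54% and 1.90%.

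The plasminogen activators, proteases that clade E serpins and Serpinb2 act on, were counted as well. Plau (urokinase) was 14.2 FPKM in WT VP against 144 in MYC VP, a log2 ratio of 3.25, and 22.7 and 48.1 in DLP, but 23.0 and 22.2 in AP. Plat (tissue plasminogen activator) was 26.8 and 57.9 in VP, 54.2 and 43.5 in DLP and 70.4 in both AP libraries. Lrp1, a receptor that clears serpin-protease complexes, was at 20.04 FPKM in WT VP against 6.74 in MYC VP, and at 33.1 and 18.8 in DLP. Of the 8 plasminogen system genes above the floor, 2 were called higher and 1 lower in VP, 1 higher in DLP and 1 lower in AP. The shares of all genes were 6.39%, 5.14%, 6.54% and 0.545%. Plasminogen itself (Plg) was not among the 8.

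The largest ratios of MYC to WT belonged to a pair of clade B genes on chromosome 1. Serpinb11 (chr1:107362314-107380475) was at 0.553 FPKM in WT DLP and 20.8 in MYC DLP, a 37.5-fold ratio in FPKM (95% counting interval 28.3 to 51.1) and 3.81 on the log2 scale of FPKM + 1. In AP it was at 0.0786 in WT and 1.86 in MYC (1.40), and in VP at 1.37 and 1.42. MYC DLP stood far above the other 5 libraries, which all lay under 2 FPKM. Serpinb2 (chr1:107500892-107525600) was at 3.69 FPKM in WT DLP and 31.0 in MYC DLP, an 8.41-fold ratio (7.45 to 9.49). It was 3.02 and 4.06 in VP, and in AP the WT library was the higher one, with 9.90 against 5.92. Serpinb5 and Serpinb8, on either side of them, differed by 0.23 and -0.05 in DLP.

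The 300-base promoters of the 2 genes (250 bases before to 50 after the start site, RefSeq, GRCm38.p6) are shown because they carry the largest ratios, Serpinb11 at chr1:107362064-107362363 and Serpinb2 at chr1:107511173-107511472, both on the + strand and printed 5′ to 3′. Capitals mark a match to TTCNNNGAA, the letters that STAT factors are known to bind, which in Serpinb2 begins at base 261, base 11 of the transcript. RefSeq gives Serpinb2 a further promoter downstream, from which the same match lies at -77, and both lie well inside the span of the gene given above. Serpinb11 has no match in this window.
Serpinb11: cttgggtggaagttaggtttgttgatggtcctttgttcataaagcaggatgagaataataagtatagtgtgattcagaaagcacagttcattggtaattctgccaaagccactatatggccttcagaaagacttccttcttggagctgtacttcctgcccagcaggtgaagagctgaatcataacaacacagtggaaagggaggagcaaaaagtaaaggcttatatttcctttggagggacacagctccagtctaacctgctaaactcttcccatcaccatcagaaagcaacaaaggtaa
Serpinb2: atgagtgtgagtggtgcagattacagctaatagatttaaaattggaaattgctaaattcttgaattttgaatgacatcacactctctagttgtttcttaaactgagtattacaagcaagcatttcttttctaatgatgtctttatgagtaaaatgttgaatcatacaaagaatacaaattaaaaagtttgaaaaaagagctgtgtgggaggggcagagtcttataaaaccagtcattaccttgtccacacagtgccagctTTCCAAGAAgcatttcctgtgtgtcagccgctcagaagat

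Next came the Serpina3 cluster on chromosome 12, a mouse expansion of the alpha1-antichymotrypsin gene, whose products inhibit chymotrypsin-like proteases, cathepsins and granzymes. Of its 7 members 4 were called higher in MYC DLP, where 6.54% of all genes were: Serpina3f, Serpina3g, Serpina3h and Serpina3i, which lie side by side from chr12:104214544-104221129 (Serpina3f) to chr12:104263045-104269509 (Serpina3i). Serpina3f was at 0.533, 1.62 and 1.63 FPKM in WT VP, DLP and AP and at 2.56, 5.48 and 1.69 in MYC. Serpina3g, known from leukocytes, was at 0.331, 1.55 and 1.25 in WT and 1.14, 5.84 and 2.01 in MYC. MYC DLP was the highest library for both, and Serpina3f was also called higher in VP (1.22).

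Serpina3i followed in DLP, with 0.683, 2.08 and 4.08 FPKM in WT VP, DLP and AP and 1.06, 6.79 and 4.10 in MYC. Serpina3h, which RefSeq lists as a transcribed pseudogene, was the most abundant of the 4 at 2.68, 7.68 and 12.5 FPKM in WT and 4.46, 29.7 and 11 in MYC. The 4 ratios in MYC DLP were alike, between 1.31 and 1.82 on the log2 scale. At the ends of the cluster, Serpina3c was at 1.62 FPKM in WT DLP and 0.8005 in MYC DLP, Serpina3m at 2.84 and 4.31, and Serpina3n, an acute-phase serpin and the most abundant of the cluster, at 101 and 126. Serpina3n was at 47.1 and 44.1 in VP and at 113 and 65.6 in AP. The cluster's median was 0.29 in VP, 1.31 in DLP and 0.03 in AP.

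These genes are close copies, so how far their reads can be told apart was counted. Of all 75-base windows of the longest transcript (GENCODE M1), 5.60% in Serpina3f, 8.91% in Serpina3g, 12.8% in Serpina3h and 6.87% in Serpina3i also occur in a searched transcript of another gene, and 1.46% in Serpina3n. The search covered protein-coding transcripts and some Serpina3 relatives that have none. It counted exact matches only, so windows that nearly match are left out. Serpina1b shared 31.1%, mainly with Serpina1d, and Serpina3m 9.65%, mainly with Serpina3k, so these levels are less certain. Serpinb11, Serpinb2, Serpinb5, Serpinb6a, Serpinb6b and the 5 stromal serpins shared 0 windows.

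A stretch near the start site lines up between the Serpina3 genes that have a promoter entry. It is shown because it differs within the cluster: 25 bases on each side of 8 letters common to the 5 promoters (agaaatca), with the 9 bases at the place of TTCNNNGAA in capitals (RefSeq, GRCm38.p6). The places are chr12:104153955-104154012 on the - strand for Serpina3c and, on the + strand, chr12:104214403-104214460 for Serpina3f, chr12:104236094-104236151 for Serpina3g, chr12:104263000-104263057 for Serpina3i and chr12:104406565-104406622 for Serpina3n.
Serpina3f: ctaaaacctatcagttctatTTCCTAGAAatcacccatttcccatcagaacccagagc
Serpina3g: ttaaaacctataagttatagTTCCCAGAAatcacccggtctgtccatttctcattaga
Serpina3i: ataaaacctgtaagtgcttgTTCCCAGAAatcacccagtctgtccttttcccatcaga
Serpina3c: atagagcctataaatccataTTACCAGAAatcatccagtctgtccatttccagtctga
Serpina3n: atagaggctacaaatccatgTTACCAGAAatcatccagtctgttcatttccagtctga

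The 9 capitals match TTCNNNGAA in Serpina3f, Serpina3g and Serpina3i, the 3 of these genes called higher in MYC DLP, and do not in Serpina3c and Serpina3n, which were not called. Serpina3h and Serpina3m have no promoter entry. Outside the cluster the match did not follow the calls: Serpinb6b, called higher in VP and DLP, had none, and Serpinb6a, at -0.63 and -0.40 there, had 2 in 1 of its promoters. Over the 58 bases Serpina3g and Serpina3i were identical at 84.5% and Serpina3c and Serpina3n at 93.1%, while Serpina3f was identical to Serpina3g and to Serpina3i at 60.3% each. Between genes with and without the match, identity ran from 44.8% (Serpina3f and Serpina3n) to 77.6% (Serpina3i and Serpina3c), so Serpina3f was less like the other 2 with the match than some pairs across the groups. Promoters were given for 19 of the 25 members, 22 promoters in all, and 4 motifs were searched on both strands. TTCNNNGAA occurred in 7 of the 22 promoters, those of 5 members (also Serpinb2 and Serpinb6a), and in 8.30% of 32851 promoters of the same length. The 2 overlapping promoters of Serpinb2, and likewise those of Serpina3f, hold the same match and count it in each. GAAANNGAA, the core of the interferon response element, occurred in 6 of the 22, those of Serpina3f, Serpina5, Serpinb6a and Serpinb9, and in 8.56% of all, and in Serpina3f and Serpinb6a it overlapped a TTCNNNGAA. CACGTG, the E-box that MYC is known to bind, was in 0 of the 22 promoters and in 7.15% of all, which says only that these letters are not in these windows. AGAACA, the androgen receptor half-site, was in 8 of the 22, those of 7 members, and in 19.0% of all promoters. A match is a description and not a binding site.

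The leukocyte list as a whole had 3 of 5 members called higher in MYC DLP, Serpinb2, Serpina3f and Serpina3g, against 6.54% of all genes, with a median of 1.31. Serpinb9 (0.49) and Serpinb1a were not called. Serpinb1a was at 18.01 FPKM in WT DLP and 12.1 in MYC DLP, and it fell in VP from 6.69 to 2.31 (-1.22) while AP held 16.4 and 24.6. Serpinb6b, a clade B gene of chromosome 13 related to Serpinb6a, was called higher in VP, from 1.20 to 3.70 FPKM (1.09 on the log2 scale, but 0.92 with equal sums of FPKM), and in DLP, from 2.86 to 9.80, and was 2.67 and 3.39 in AP.

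Markers of blood cells rose in the same libraries. Of 12 hematopoietic markers 10 were called higher in MYC VP, 12 in MYC DLP and 0 in AP, where 6.39%, 6.54% and 1.90% of all genes were. None was listed at 0 in any library. Their summed level was 48.2, 104 and 212 FPKM in WT VP, DLP and AP and 256, 439 and 208 in MYC. Ptprc, which marks all leukocytes, was at 1.91, 3.18 and 4.59 FPKM in WT and 4.72, 11.4 and 4.62 in MYC. Interferon-stimulated genes, 10 in number, had 7, 9 and 4 called higher in MYC VP, DLP and AP, against the same shares of all genes. The part of either in the serpin ratios was not tested.

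Some of the granule proteases that clade B and Serpina3 serpins meet were also higher in MYC DLP. Of the 10 leukocyte granule genes above the floor, 2 were called lower in VP and 3 higher in DLP, where 5.14% and 6.54% of all genes were. The 10 include Prf1 and Cpa3, which are not serine proteases. Gzmc was at 0.378 FPKM in WT DLP and 6.59 in MYC DLP, Gzmb at 9.03 and 24.6, and Mcpt4, a mast cell chymase, at 0.959 and 4.57. Gzmb was at 8.01 and 15.7 in VP and 6.32 and 5.80 in AP. Serpinb9, its inhibitor, differed by 0.01, 0.49 and 0.39 in VP, DLP and AP.

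**Figure D4:**
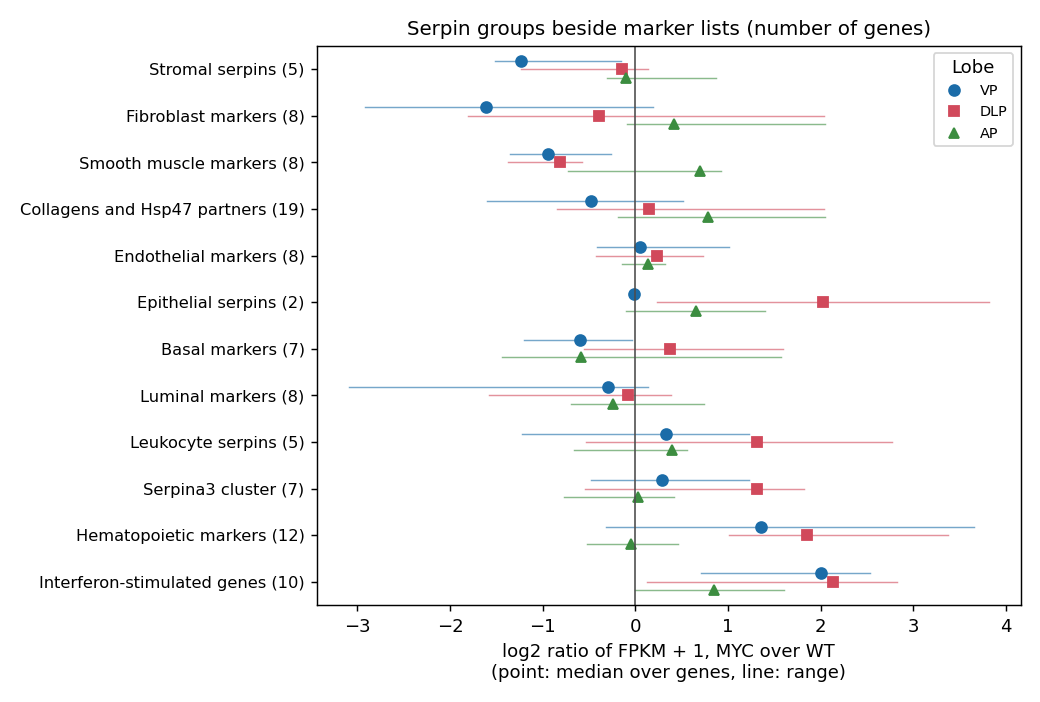
Median (point) and range (line) of the log2 ratio of FPKM + 1 of MYC over WT within each gene list, for VP (circle), DLP (square) and AP (triangle), with the number of genes in brackets. Stromal serpins (median -1.24) and fibroblast markers (-1.61) are lowest in VP, and leukocyte serpins and the Serpina3 cluster (1.31 each) are highest in DLP, as are hematopoietic markers (1.85). Leukocyte serpins and the Serpina3 cluster share Serpina3f and Serpina3g, and the DLP median of each is the value of Serpina3f.

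Against the stromal list, the 2 epithelial serpins had medians of -0.02 in VP, 2.02 in DLP and 0.65 in AP, with Serpinb5 within 2-fold throughout and Serpinb11 alone called. With a mean of at least 10 FPKM, which leaves Serpinb5 alone, the DLP median was 0.23. The AP median was past 2-fold with a pseudocount of 0.1. The summed stromal serpins stood 34.7-fold over the summed epithelial serpins in WT VP and 23.5- and 23.4-fold in WT DLP and AP. In MYC the ratio was 15.1 in VP and 7.34 in DLP, and 23.4 in AP. Basal markers had medians of -0.60, 0.37 and -0.59 in the 3 lobes and luminal markers -0.30, -0.08 and -0.24.

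The epithelial serine proteases and the inhibitors of other families were counted beside the serpins. Of 13 epithelial and stromal proteases 2 were called lower in VP, Htra3 (9.08 and 0.929 FPKM) and Tmprss2 (23.8 and 5.38), and 2 higher in DLP, among them Tmprss4 (0.155 and 3.92). Of 20 other serine protease inhibitors, of the Kunitz, Kazal, WAP and other families, 3 were called higher and 4 lower in VP, 10 higher and 1 lower in DLP, and 5 higher in AP. The shares of all genes were 6.39% higher and 5.14% lower in VP, 6.54% and 3.09% in DLP, and 1.90% higher in AP. Spink1, a Kazal inhibitor secreted by VP, was at 25230 FPKM in WT VP against 285 in MYC VP, but ran the other way in DLP, with 0.197 and 79.5, and in AP, where it was listed at 0 in WT and stood at 7.04 in MYC. Wfdc12, a WAP inhibitor, was at 0.163 FPKM in WT DLP and 1657 in MYC DLP, and at 0.0755 and 1028 in AP. Wfdc15b was at 1.15 and 73.6 in DLP. The highest ratio of MYC to WT among the serpins was the 37.5-fold of Serpinb11.

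The other 6 members stayed under 5 FPKM and passed 2-fold in no comparison on FPKM + 1. They were Serpina1b (alpha1-antitrypsin), Serpina3c, Serpina3m, Serpina9, Serpinb6c and Serpini1 (neuroserpin), and their levels ran from 0.0162 FPKM to 4.31. The added 1 FPKM holds such low genes near 0, and their plain FPKM ratios of MYC to WT were larger. Serpina1b reached 4.85 in DLP (95% counting interval 2.42 to 10.4) and Serpini1 4.84 in VP (2.60 to 9.68). Serpina3c was at 0.253 in VP (0.130 to 0.474) and Serpina9 at 0.353 in AP (0.269 to 0.459). Serpinb6c was at 0.0603 in DLP (0.00143 to 0.363), from about 1 read against 23, and at 2.69 in AP (1.5 to 5.39). Of these 6 genes, Serpina3m alone stayed within 2-fold in all 3 lobes on plain FPKM, from 0.872 in VP to 1.52 in DLP. Of the hepatocyte markers, Alb, Apoa1, Ahsg and Fgb reached at most 0.157, 0.200, 0.418 and 0.786 FPKM and Ttr 1.01, while Trf, which other tissues also make, was at 1.23 to 16.4 over the 6 libraries.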

How the data were processed

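The authors mapped single-end 75-base reads of 6 libraries with STAR to mm10 and quantified genes with Cufflinks (bcl2fastq 2.18 is also named in the submitters' processing notes), and the deposited table holds FPKM, with symbols in capitals. No counts were used, and the depth is an estimate. From the FPKM, log2 ratios with a pseudocount of 1 were computed over the 14669 genes with at least 0.5 FPKM in 1 library, and called at 2-fold. With 1 library per group no test was run. Fold calls were tested on simulated data, which checks the calculation only and not the calls made here from 1 library per group. Reads per gene were estimated from the recovered depth and the longest GENCODE M1 transcript less 200 bases, and 95% Clopper-Pearson intervals of ratios cover counting error only. Values in all 6 libraries are given for the 19 members that reached 5 FPKM or 2-fold, except 1 that is counted but not reported here, and up to 3 genes per other list by largest ratio. The members and lists were chosen with earlier results of these data known, and the ratios between genes after their values were seen. Alternatives were other scalings, pseudocounts, filters and a 4-fold threshold. Promoters and coordinates were from RefSeq (GRCm38.p6, the mm10 assembly). Work was done in Python 3.11.15 with scipy 1.17.1, pandas 2.3.3 and numpy 2.4.6, and figures with matplotlib 3.10.9.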

Additional observations from a re-analysis of the deposited data

Results flagged for a closer look

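In 3 serpins the ratio of MYC to WT ran in opposite directions in 2 lobes, by over 0.5 on the log2 scale of FPKM + 1 each way. Each rests on 1 library per genotype and lobe, and the difference between lobes was not tested. Serpinb2 was 2.77 in DLP and -0.66 in AP, 3.43 apart. Serpinf1 was 0.87 in AP and -1.24 in VP, 2.12 apart. Serpinb1a was 0.56 in AP and -1.22 in VP, 1.77 apart. Each has the library labelled MYC AP on 1 side, in which the Myc gene did not differ from WT AP (0.01) and in which seminal vesicle genes such as Svs4 (292.5 FPKM) and Svs5 (212), both listed at 0 in WT AP, were read. Svs4 and Svs5 were also read in MYC DLP, at 4.68 and 2.62 FPKM, and were listed at 0 in WT DLP. The part of these in the ratios was not tested.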

How the results depend on the processing

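No paired analysis was possible because each group holds 1 library. The sample titles tie the 3 lobes of a genotype to 1 mouse, so each comparison of WT lobes is within that mouse and each comparison of genotypes is between the 2 mice. Of 37 calls of members over the 6 comparisons, 32 were past 2-fold under every alternative that gave the gene a value, the 4-fold threshold aside, and 0 reversed. The filter at a mean of 1 FPKM left 35 of the 37 to compare and that at 10 FPKM 20. With size factors from medians of ratios, WT VP against DLP had 5 members lower and WT VP against AP 2 higher, where 3.86% and 8.17% of all genes were. Serpina3n, Serpinf1 and Serpinh1 in the first (-0.87, -0.83 and -0.88) and Serping1 in the second (-0.92) were no longer past 2-fold. With equal sums of FPKM, with or without the 20 highest genes, MYC VP had 1 member higher, since Serpinb6b was no longer past 2-fold (0.92 with all genes), and 5 lower, since Serpine2 passed it (-1.08 and -1.12), where 4.31% or 4.16% of all genes were higher and 7.56% or 8.21% lower. The median of all genes in VP then moved from 0.03 to -0.11 or -0.14. With a pseudocount of 0.1, MYC VP had 4 higher, MYC DLP 2 lower, and MYC AP 2 higher and 1 lower, where the shares of all genes were 11.9%, 6.10%, 5.96% and 1.31%, and the epithelial median in AP was 1.67. WT VP against DLP then had 1 higher and 18 lower, where the shares of all genes were 4.10% and 13.3%. WT VP against AP had 18 lower and WT DLP against AP 1 higher, where the shares were 17.01% and 7.10%. With a mean of at least 1 FPKM, WT DLP against AP had 1 lower, where 1.31% of all genes were. With a mean of at least 10 FPKM, MYC VP and MYC AP had 0 higher and MYC DLP 1, where 7.18%, 2.183% and 4.50% of all genes were, with an epithelial median of 0.23 in DLP from Serpinb5 alone. WT VP against AP then had 0 higher and 7 lower, and WT DLP against AP 0 lower, where the shares of all genes were 9.89%, 9.74% and 1.16%. At 4-fold, MYC VP had 0 higher and 0 lower, MYC DLP 2 higher and 0 lower, and MYC AP 0 higher, where the shares were 1.06%, 0.784%, 1.39%, 0.566% and 0.464%. At 4-fold the WT comparisons had 0 lower for VP against DLP, 0 in each direction for VP against AP and 0 lower for DLP against AP, with shares of all genes from 0.211% to 1.47%, and the stromal median in MYC VP, -1.24, was not past the threshold. Relative to the mean of Krt8 and Krt18 that median was -0.98. The cause of these moves was not tested beyond the fewer genes that a filter leaves. Depth limits the lowest members most, such as Serpina5 outside AP and Serpinb11 in WT AP.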
